A study of Homo sapiens with 8 samples.

Results

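The ephrin-A ligand genes EFNA4, EFNA3 and EFNA1 lie in that order, all on the forward strand, in an 85-kb stretch of chromosome 1 (153295000 to 153380000 in hg18). This stretch was chosen by the measured EZH2 ChIP-seq signal, because the highest peak of both run 2 lists falls in it, so its heights are given here as a description. Peaks sharing at least 1 bp with it numbered 9 of the 19721 peaks in the 4 deposited lists: 3 in NTKO run 1 and 2 in each of the others. Merging the lists gave 2 regions with a peak in every list, of 326 such regions in all, 1 at EFNA3 and 1 at EFNA1. In ChIP-seq, fragments of chromatin bound by a protein are pulled down with an antibody, here against EZH2, and read by sequencing. Both cell lines derive from KMS11, a human multiple myeloma line whose IGH-MMSET rearrangement drives high MMSET, and both were grown in the same medium. NTKO cells, labelled high for MMSET, had their wild-type MMSET allele inactivated and keep the rearranged one. TKO cells, labelled low for MMSET, had the rearranged allele inactivated and keep the wild-type one. Each group is therefore 1 engineered line, and a difference between the lines cannot be told apart from other differences between these derivatives. Each line had 2 EZH2 samples, called run 1 and run 2, which the study describes as independent biological replicates, and 2 input samples that enter only through the authors' peak calls.

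EZH2 is the catalytic subunit of Polycomb Repressive Complex 2 (PRC2), which methylates lysine 27 of histone H3 and is found at silenced genes, in mammals mostly at CpG-rich promoters. MMSET, also called NSD2, methylates lysine 36 of the same histone. Ephrin-A proteins are ligands held on the cell surface by a lipid anchor, and they bind EphA receptor tyrosine kinases on neighboring cells, with signals passing into both cells. EFNA1 was first known as a gene induced by tumor necrosis factor in endothelial cells. Transcripts were not measured in these files, so nothing below concerns the expression of these genes.

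The starts of the genes in hg18 were taken as about 153302800 for EFNA4, 153318000 for EFNA3 and 153367000 for EFNA1. These are rounded positions, and all distances from a start carry that rounding. Their spacing was checked against RefSeq on GRCh38.p14, where the EFNA3 start lies 15.1 kb and the EFNA1 start 64.1 kb from that of EFNA4, against 15.2 and 64.2 kb for the rounded positions. The 250 bases before each start, from RefSeq on GRCh38.p14, are shown because they differ in whether an EZH2 peak covered the start. Measured from the rounded starts, no summit at EFNA3 or EFNA1 lay within these bases, and the sequence at the summits was not read. Every CG dinucleotide is in capitals, and the sequences run from 5′ to 3′ on the forward strand. They lie at chr1:155063490-155063739 (EFNA4), chr1:155078587-155078836 (EFNA3) and chr1:155127626-155127875 (EFNA1).
EFNA4: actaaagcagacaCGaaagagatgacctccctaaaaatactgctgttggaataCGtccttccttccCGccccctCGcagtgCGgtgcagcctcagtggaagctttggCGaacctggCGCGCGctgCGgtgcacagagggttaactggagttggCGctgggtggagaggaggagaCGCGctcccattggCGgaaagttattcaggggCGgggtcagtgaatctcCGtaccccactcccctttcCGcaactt
EFNA3: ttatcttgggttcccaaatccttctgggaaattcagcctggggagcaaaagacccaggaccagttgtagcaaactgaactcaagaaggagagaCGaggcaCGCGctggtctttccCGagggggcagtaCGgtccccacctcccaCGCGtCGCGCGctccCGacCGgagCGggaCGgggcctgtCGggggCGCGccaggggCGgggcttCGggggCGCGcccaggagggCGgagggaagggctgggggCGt
EFNA1: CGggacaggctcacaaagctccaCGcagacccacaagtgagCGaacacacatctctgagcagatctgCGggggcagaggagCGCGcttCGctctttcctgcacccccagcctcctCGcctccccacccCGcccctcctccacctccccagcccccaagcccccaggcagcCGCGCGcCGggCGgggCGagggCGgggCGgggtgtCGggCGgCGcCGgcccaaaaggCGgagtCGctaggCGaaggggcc

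The EFNA1 sequence held 24 CG dinucleotides at 73.2% G+C and the EFNA3 sequence 23 at 67.6%. The EFNA4 sequence held 17 at 58.4% G+C. In all 3 genes the number was above the median of 11 over 35116 RefSeq promoters of the same length, of which 23.7% held at least as many as EFNA1, 25.8% as many as EFNA3 and 39.0% as many as EFNA4. The ratio of observed to expected CG, which corrects for base composition, was 0.726 for EFNA1, 0.826 for EFNA3 and 0.798 for EFNA4, against a median of 0.558. On that ratio EFNA4 thus lay between EFNA1 and EFNA3. The letters GGGCGG, counted on both strands and with overlaps allowed, occurred 5 times before EFNA1 and 2 times each before EFNA3 and EFNA4, and 42.6% of all promoters held them at least once. No promoter of the 3 held TATAAA or GGGGGG on either strand, which occurred in 10.7% and 17.6% of all promoters. Of 19 other ephrin and Eph receptor genes, 17 matched the promoter table (EFNB3 and EPHA10 did not), with 3 to 42 CG dinucleotides and a median of 23.0. For these 17 the promoter entry with the most CG dinucleotides was taken for each gene. The first entry was taken for EFNA1, EFNA3 and EFNA4, and every entry for the 35116, so these counts are not a like comparison. Peaks could not be assigned to the other ephrin and Eph receptor genes here, since no annotation of hg18 was used.

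An EZH2 peak covered the starts of EFNA3 and EFNA1 in all 4 lists, and none covered the start of EFNA4. At EFNA1 in TKO run 1 the peak ended only 93 bp past the rounded start, a margin within the rounding, since the spacing of the rounded starts was 64 to 103 bp off that in RefSeq. The nearest peak edge to the EFNA4 start was 14.5 and 14.8 kb away in NTKO runs 1 and 2 and 14.9 and 14.4 kb away in TKO runs 1 and 2, and in each case it belonged to the EFNA3 peak. A peak list gives no signal below its calling threshold, so weaker EZH2 binding at EFNA4 was not detectable here. Between the EFNA3 and EFNA1 peaks lay 41.2 to 43.2 kb without a peak. The next peak upstream of the pair was 209 kb away in NTKO run 1 and 509 to 1302 kb away in the other lists. The next peak downstream was 63.0 kb away in NTKO run 1 and 952 to 1287 kb away in the others. Outside the stretch, no peak thus lay closer than 63.0 kb to the EFNA3 and EFNA1 peaks in any list. These gaps were not compared with the usual spacing of peaks, which is wider in a shorter list.

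**Figure D1:**
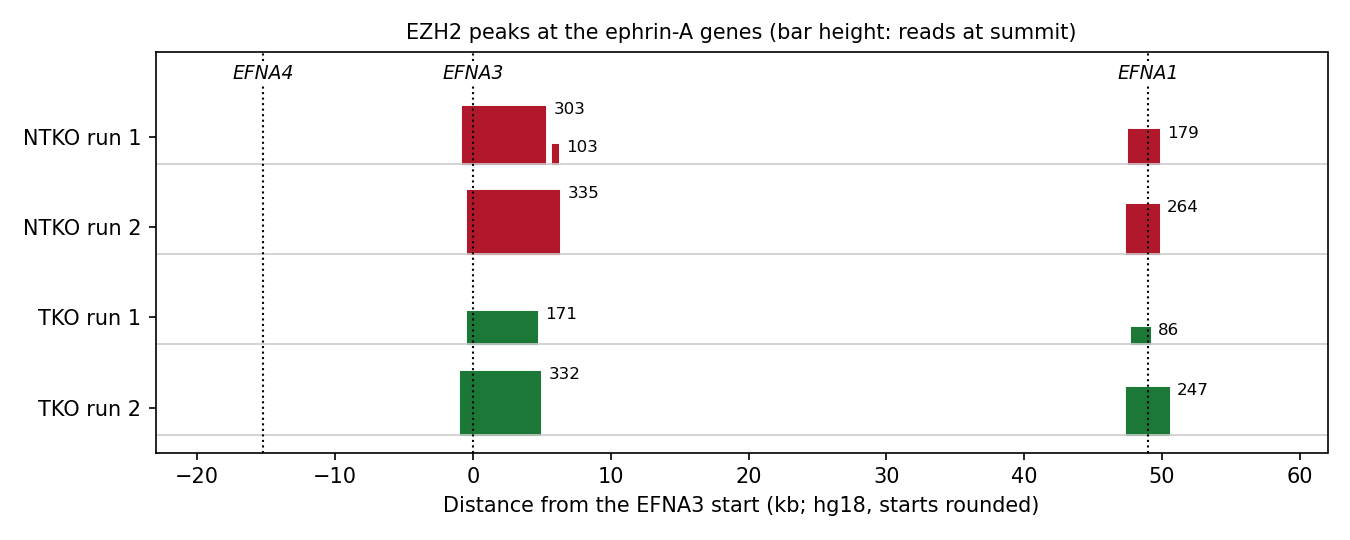
EZH2 peaks at the ephrin-A genes in the 4 lists, with the distance from the EFNA3 start in kb on the horizontal axis. Each bar spans a peak, its height and the number beside it give the reads at the summit, dotted lines mark the gene starts, and NTKO is red and TKO green; peaks sit on EFNA3 and EFNA1 in every list and none on EFNA4.

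EFNA3 carried the higher of the 2 peaks in every list. In hg18 its peak spanned chr1:153317283-153323267 and chr1:153317641-153324252 for NTKO runs 1 and 2, and chr1:153317653-153322621 and chr1:153317167-153322906 for TKO runs 1 and 2. Its summit height, the number of reads stacked at the highest point of the peak, was 303 and 335 for NTKO runs 1 and 2 and 171 and 332 for TKO runs 1 and 2. Only TKO run 1 was low, and the ranges of the lines overlapped. This peak ranked first of 10582 peaks in NTKO run 2 and first of 5516 in TKO run 2, but its rank was 3 of 2972 in NTKO run 1 and 6 of 651 in TKO run 1, so it was not the tallest peak of the run 1 lists. The peak ranked next had 305 reads in NTKO run 2 (chr12:55894359-55900367) and 294 in TKO run 2 (chr10:22650853-22652031). The highest peak of both run 1 lists lay elsewhere on chromosome 1 (chr1:147120406-147122689 in NTKO run 1), with 313 reads for NTKO and 264 for TKO cells, and it had 282 and 269 reads in the run 2 lists. Relative to the median peak of its list, the EFNA3 peak was 5.83 and 5.32 times as high in NTKO runs 1 and 2 and 3.89 and 5.11 times as high in TKO runs 1 and 2. The authors' log10 p-value was listed as minus infinity, below what their program could write, in 3 lists and was -96.4 in TKO run 1.

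EFNA1 had a lower peak, which was lowest in TKO run 1 and highest in NTKO run 2, as at EFNA3. It spanned chr1:153365623-153367790 and chr1:153365431-153367773 for NTKO runs 1 and 2, and chr1:153365833-153367093 and chr1:153365477-153368497 for TKO runs 1 and 2. It reached 179 and 264 reads for NTKO runs 1 and 2, and 86 and 247 reads for TKO runs 1 and 2. Run 2 was higher than run 1 in both lines, and the ranges of the lines overlapped. The peak ranked 21, 12, 33 and 9 in those lists, and its log10 p-value was -76.5, -108, -32.9 and -78.1. Against EFNA3 in the same list, the EFNA1 peak reached 59.1% and 78.8% of the height in NTKO runs 1 and 2, and 50.3% and 74.4% in TKO runs 1 and 2. The second peak at EFNA3 in NTKO run 1 (chr1:153323786-153324195), 410 bp wide with 103 reads, had no separate counterpart in the other lists.

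**Figure D2:**
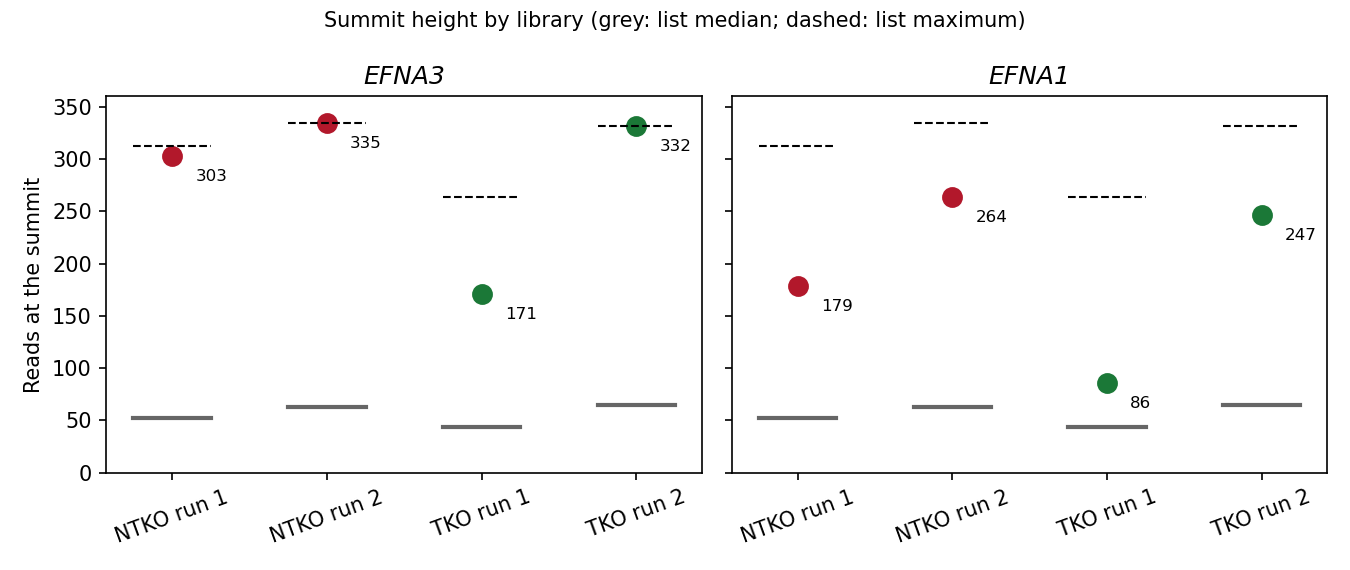
Summit height in reads of the EFNA3 peak (left) and the EFNA1 peak (right) in each library, with 1 point for each library. Grey lines give the median and dashed lines the maximum of all peaks in that list; EFNA3 sits on the maximum in both run 2 libraries and below it in both run 1 libraries, where it had 303 and 171 reads.

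The EFNA3 peak was broad as well as high, and it reached into the first intron of the gene. It was 5985 and 6612 bp wide for NTKO runs 1 and 2 and 4969 and 5740 bp wide for TKO runs 1 and 2, which is 16.3 to 18.1 times the median width in the same list. In TKO run 1 it was the widest peak of the list, and elsewhere it ranked 13, 81 and 24 by width. In GENCODE v44 on GRCh37 the EFNA3 gene spans 8.70 kb, its first exon is 233 bp long and its second exon begins 6.25 kb from the start. The left edge of the peak lay 0.717 and 0.359 kb upstream of the start for NTKO runs 1 and 2 and 0.347 and 0.833 kb for TKO runs 1 and 2, in no order by line. The right edge of the EFNA3 region lay 6.20 and 6.25 kb downstream of the start in the NTKO runs, near the start of the second exon, and 4.62 and 4.91 kb downstream in the TKO runs. The NTKO edge was on average 1460 bp further downstream, with no overlap of the lines (exact permutation test, two-sided, n = 2 against 2, p = 0.333, the smallest p this design allows). Edges were compared after their values were seen, and any lack of overlap gives that p in this design. In NTKO run 1 the right edge belongs to the separate peak of 410 bp, and the main peak there ended 5.27 kb from the start. Of the 326 regions, 119 (36.5%) had a right edge further right in both NTKO runs than in both TKO runs, and 110 (33.7%) had a left edge further left. EFNA3 is among the former and not the latter, and EFNA1 is in neither group. The EFNA1 peak was narrower than that at EFNA3, at 2168 and 2343 bp for NTKO runs 1 and 2 and 1261 and 3021 bp for TKO runs 1 and 2. It was both narrowest and widest in TKO cells.

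At EFNA3 the summit itself lay at a different place in the lines. It was 1163 and 922 bp downstream of the start for NTKO runs 1 and 2, but 2998 and 2868 bp downstream for TKO runs 1 and 2. All 4 summits fall in the part of the gene that is first intron in the GRCh37 annotation. The runs of a line differed by 241 bp in NTKO and 130 bp in TKO cells, whereas the TKO mean was 1890 bp further downstream than the NTKO mean (exact permutation test, two-sided, n = 2 against 2, p = 0.333). Summits were compared after their values were seen, and any lack of overlap gives that p in this design. At EFNA1 all 4 summits lay within 45 bp of each other, 433 and 443 bp upstream of the start in the NTKO runs and 420 and 398 bp upstream in the TKO runs. They too did not overlap between the lines, with means 29.0 bp apart (exact permutation test, two-sided, n = 2 against 2, p = 0.333). Summits that did not overlap between the lines occurred in 93 of the 326 regions (28.5%), so that property by itself was common. A distance as large as at EFNA3 was found in 5 regions, EFNA3 included, and in 3 of these the lines did not overlap. Broad regions held most of them: 4 of the 5 were among the 14 regions at least as wide as EFNA3 in every list, where summits did not overlap in 6 (42.9%). The median distance was 89.8 bp over all 326 regions. It was 488 bp over the 22 regions at least 3000 bp wide in every list, of which 7 (31.8%) had summits that did not overlap, a width limit set after seeing the data. The lists give only the highest point of each peak, so a peak with several points of near equal height cannot be told apart from a moved summit.

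**Figure D3:**
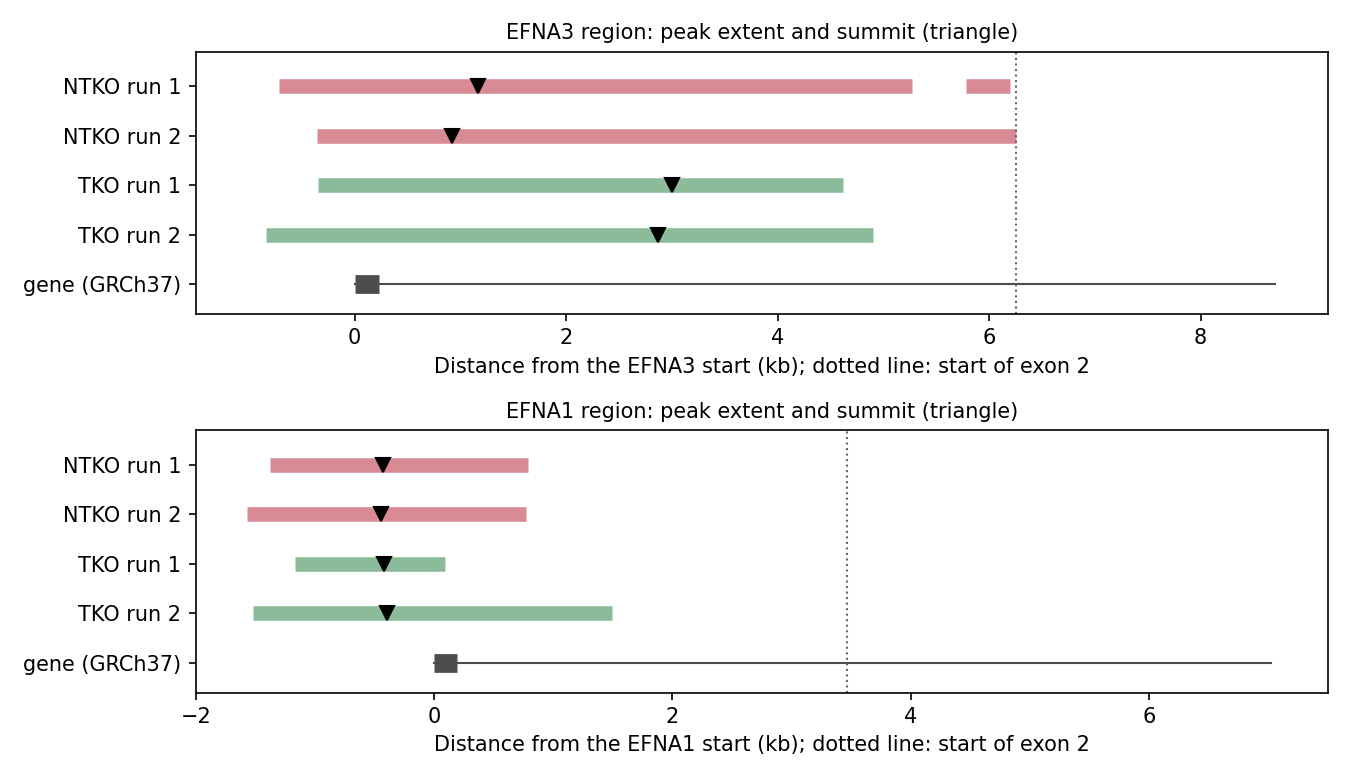
Extent of each peak (colored bars) and position of the highest summit (triangles) at EFNA3 (top) and EFNA1 (bottom), as distance in kb from the rounded gene start, with NTKO red and TKO green. The grey line is the gene with its first exon, and the dotted line is the start of exon 2, from GRCh37 gene lengths (later exons are not drawn); EFNA3 summits lie at 0.922 and 1.16 kb in NTKO and at 2.87 and 3.00 kb in TKO cells.

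**Figure D4:**
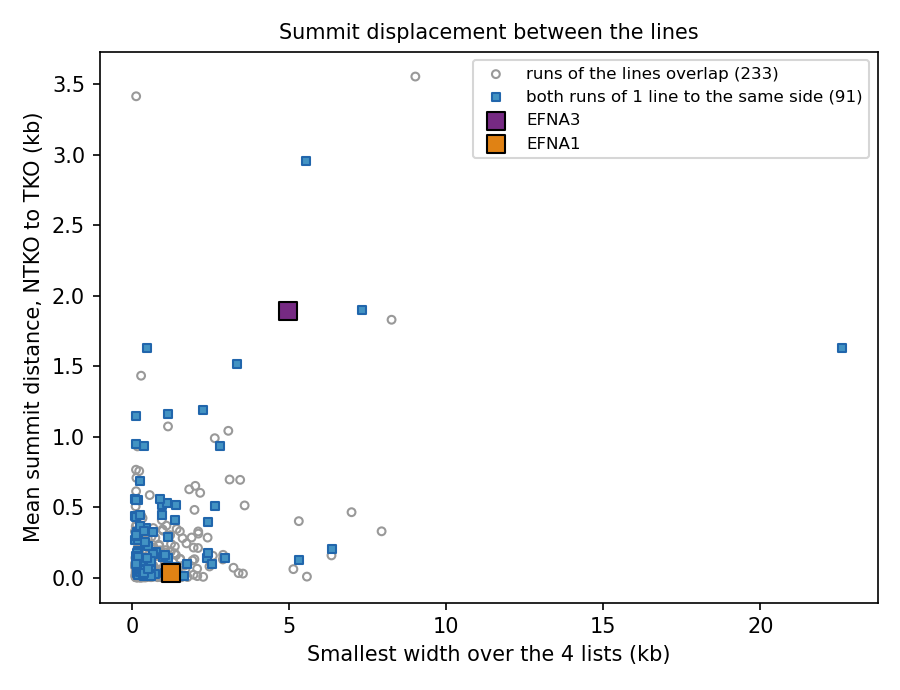
Distance between the mean NTKO and the mean TKO summit, in kb, against the smallest width of the region over the 4 lists, in kb, for the 326 regions with a peak in every list. Filled squares are regions where the summits of the lines did not overlap and open circles those where they did; EFNA3, at 1.89 kb, is among the 5 regions with the largest distances, and EFNA1, at 0.0290 kb, is near 0.

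Peak heights of the high and low MMSET cells overlapped at both genes. The stretch was chosen by heights within single lists, not by the contrast of the lines. The choice still bears on that contrast, since EFNA3 held the highest peak of both run 2 lists. Its run 2 ratio therefore compares the maxima of those lists. With 2 samples against 2 no p below 0.333 is possible, so the tests here cannot show that the lines are alike. At EFNA3 the log2 height averaged 8.32 ± 0.10 (SD, n = 2) for NTKO and 7.90 ± 0.68 (SD, n = 2) for TKO cells, a difference of 0.42 (exact permutation test, two-sided, p = 0.667). At EFNA1 it averaged 7.76 ± 0.40 (SD, n = 2) for NTKO and 7.19 ± 1.08 (SD, n = 2) for TKO cells, a difference of 0.58 (exact permutation test, two-sided, p = 0.667). Nearly all of the difference came from run 1, where the log2 NTKO to TKO ratio was 0.83 at EFNA3 and 1.06 at EFNA1. In run 2 it was 0.01 and 0.10. Without TKO run 1 the difference was -0.06 at EFNA3 and -0.18 at EFNA1, so its direction rests on that library. The median ratio of the 326 regions was 0.90 in run 1 and 0.12 in run 2. The ratio at EFNA3 had 136 regions below it in run 1 and 99 in run 2. That at EFNA1 had 208 below it in run 1 and 142 in run 2. Heights in both NTKO runs exceeded those in both TKO runs in 39 of the 326 regions (12.0%), and neither EFNA3 nor EFNA1 was among them.

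Limma was fitted to the log2 heights of all 326 regions. The NTKO to TKO difference was 0.42 (SE 0.84) at EFNA3 and 0.58 (SE 0.84) at EFNA1, both with a Benjamini-Hochberg adjusted p of 0.944. The stretch was chosen by these same heights, so the limma values at both genes are given as a description. No region was called at an adjusted p under 0.05 (0% of 326), and 0 had an unadjusted p under 0.05. The unadjusted count depended on the fit. With the run number added as a block, the SE at both genes was 0.41, and 77 regions had an unadjusted limma p under 0.05. Centring on the median of each sample gave 28 such regions, and centring with the block, chosen after seeing the data, gave 124. All of the 326 regions have a peak in every list, so sites found only in NTKO or only in TKO cells were not tested. When heights were centred on the median of each sample, which moved the median difference of all regions from 0.55 to -0.09, the differences became -0.23 at EFNA3 and -0.07 at EFNA1.

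The mean level of reads over the whole peak gave a somewhat different picture from the summit. At EFNA3 it was 173 and 177 reads in the NTKO runs and 101 and 164 in the TKO runs, and at EFNA1 it was 90.0 and 111 against 45.5 and 85.7. Both NTKO values were above both TKO values at each gene (exact permutation test, two-sided, n = 2 against 2, p = 0.333 for each). This was so in 96 of the 326 regions (29.4%). In all, 10 values were compared between the lines by the exact test, and the lowest Benjamini-Hochberg adjusted value over them was 0.667.

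**Figure D5:**
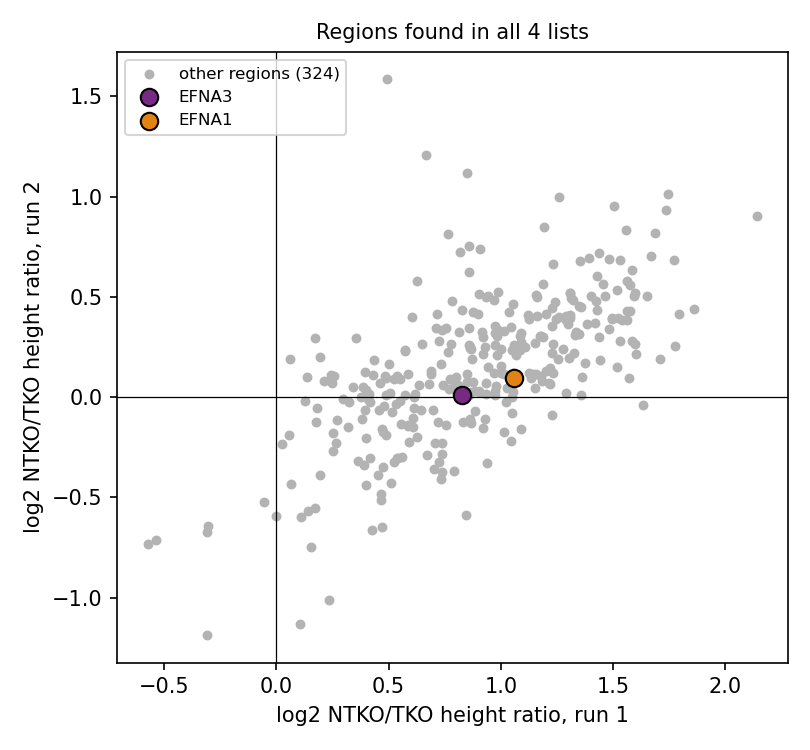
Log2 ratio of NTKO to TKO summit height in run 1 (horizontal) and run 2 (vertical) for the 326 regions with a peak in every list, 1 point for each region. EFNA3 (0.83 and 0.01) and EFNA1 (1.06 and 0.10) lie within the cloud of other regions, not at its edge.

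Heights were higher in run 2 than in run 1 in both lines at both genes. At EFNA3 the log2 ratio of run 2 to run 1 was 0.14 in NTKO and 0.96 in TKO cells, and at EFNA1 it was 0.56 in NTKO and 1.52 in TKO cells. Beside these, the log2 NTKO to TKO ratio in run 1, 0.83 at EFNA3 and 1.06 at EFNA1, was larger than the step in NTKO cells and smaller than that in TKO cells. The medians of the step over the 326 regions were 0.62 and 1.47. EFNA1 thus changed about as much as the typical region, while EFNA3 changed less than it in both lines, with 32 regions below it in NTKO and 54 in TKO cells. The study's methods state that each sample was normalized to its input, but not whether the listed heights were scaled to library size, and the part of sequencing depth in the step between runs was not tested.

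Peaks covered 8.56 and 8.96 kb of the stretch for NTKO runs 1 and 2, and 6.23 and 8.76 kb for TKO runs 1 and 2. TKO run 1 was low and the ranges of the lines overlapped (exact permutation test on log2 length, two-sided, n = 2 against 2, p = 0.667). As a share of all the length under peaks the mean difference was reversed, at -1.74 in log2. The lines again overlapped (exact permutation test, two-sided, n = 2 against 2, p = 0.667). The whole lists cover 2.06 and 7.86 Mb in NTKO runs 1 and 2 and 0.307 and 3.38 Mb in TKO runs 1 and 2. Windows of 85 kb were also laid end to end along each chromosome, and those that hold a peak were kept. Of these, 0.275% for TKO run 1 and 5.48% for TKO run 2 were covered at least as much as the stretch. For NTKO runs 1 and 2 it was 4.68% and 8.83%. Such windows can cut a group of peaks, whereas the stretch was chosen for its peaks, so these shares are not a like comparison. The number of peaks in the stretch, 3 and 2 in NTKO and 2 and 2 in TKO cells, did not separate the lines (exact permutation test, two-sided, n = 2 against 2, p = 1.00).

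Measured by the Euclidean distance of log2 heights over the 4 samples, the region most like EFNA3 was chr10:22650839-22652130, at a distance of 0.56. Its heights were 227 and 283 reads in the NTKO runs and 200 and 294 in the TKO runs. Next came chr1:147120406-147122694 at 0.74 and chr1:120839063-120840533 at 0.79, both highest in NTKO run 1, unlike EFNA3. EFNA1 was 13 in this order, at 1.36. Genes were not assigned to these regions.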

How the data were processed

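EZH2 ChIP-seq peak lists of 2 NTKO and 2 TKO samples were used. Alignment by the authors was to hg18, by BWA. They discarded multiple reads at 1 exact location, which limits how high a summit can be stacked. Peak calling by ChIPseeqer was per sample, not pooled, with 2 times the matching input and a −log10 p of 15 as its limits. The deposited signal columns give the reads averaged over a peak and those at its summit, with normalization of each sample to its input stated in the methods but no scaling to depth, and depth is unknown from the lists, so counting precision cannot be given. A log10 p-value is the deposited score, and the deposited percent column places the summit within the peak.

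The members, lists and tests were chosen with earlier results of these data known, and the comparisons of summits and edges after their values were seen. The mean level was planned as an alternative to height. Summits were assigned to the nearest of the 3 gene starts. Regions were peaks of the 4 lists merged at 1 bp of overlap, each with its highest peak. Named were the 3 genes with all their peaks, the highest peak outside the stretch in each list, and the 3 regions most alike in height. In the run 2 lists the highest peak outside the stretch is also the one ranked next to EFNA3. The peaks ranked next to EFNA3 in the run 1 lists are not named. Coordinates are those of hg18 counted from 1 and were not converted. Single values were compared by exact permutation tests over samples. Heights of all regions were compared with limma (version 3.58.1, R 4.3.3) without blocking, and the script was tested on simulated data. That simulation had independent errors and a far larger shift than the differences here. It checks the code and does not show how the fit behaves with a step between runs. Other steps used Python 3.11.15, numpy 2.4.6, pandas 2.3.3 and matplotlib 3.10.9. Alternatives were other scalings, the mean level, a −log10 p of at least 20, merging within 1 kb, peaks within 5 kb of a start, leaving out each replicate and the run number as a block.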

Additional observations from a re-analysis of the deposited data

How the results depend on the processing

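Across 13 results, 90 alternatives were run, of which 70 kept the direction and side of the threshold, or a rank within the spread between runs. Of the rest, 12 reversed, 2 fell to no difference, 1 gained calls and 5 moved a rank by at least the SD of the ranks between runs. Some of the 70 could not have changed. A run block leaves a difference of means unchanged in this balanced design. The stricter p limit and the 5 kb limit left the highest peak at each gene in place. Values without 1 replicate were counted for the heights and again for limma. The 70 are therefore not that many independent checks. Of the ranks counted as kept, that in NTKO run 1 was 2 by mean level against 3 by height, and that in TKO run 1 was 8 by p-value against 6. As log2 differences of NTKO minus TKO, the height at EFNA3 went from 0.42 to -0.11 when scaled to the mean height of regions in all 4 lists. As a share of the whole list the covered length went to -1.74 and the number of peaks to -1.27, since within each run the NTKO list is longer. Merging peaks within 1 kb brought the number of peaks to 0.00 because it joins the 2 EFNA3 peaks of NTKO run 1. Leaving out 1 replicate at a time gave -0.06 to 0.90 for the height at EFNA3, -0.18 to 1.34 at EFNA1, -0.0007 to 0.49 for the covered length and 0.00 to 0.58 for the number of peaks. The values below 0 came without TKO run 1, and the limma differences at the genes were the same as these. The summit at EFNA3 stayed 1770 to 2011 bp further downstream in TKO cells, and 1835 and 1946 bp in run 1 and run 2 alone.

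Under a replicate block made of the run numbers, the height differences were by construction again 0.42 and 0.58. The limma adjusted p was 0.488 at EFNA3 and 0.344 at EFNA1, and 0 regions were called. The same-numbered samples deviated together (r = 0.759), a value that 2 samples a line mirror by construction, and the labels do not say that a number marks a shared batch. With centring and the replicate block, chosen after seeing the data, 47 regions passed, but neither gene did (-0.23 and -0.07, adjusted p of 0.281 and 0.758). The cause was not tested. At EFNA3 the right edge of the highest peak alone gave -996 bp for TKO minus NTKO, against -1460 bp. No height could be given for EFNA4, which had no peak.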
